A study of Mus musculus with 8 samples.

Results

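Messenger RNA of 10 genes that report on signalling through the T cell receptor (TCR) was followed in 8 bulk RNA sequencing libraries of mouse spleen CD8 T cells. The genes were Nr4a1, Nr4a2, Nr4a3, Egr1, Egr2, Egr3, Irf4, Myc, Cd5 and Cd6, taken by their symbols. All 10 were among the 15609 genes of the deposited count table, and all 10 were among the 15112 genes that passed the filter on low counts. The series compares virtual memory (VM) cells, a CD8 T cell population with a memory phenotype that forms in the absence of foreign antigen, with true memory and naive cells. VM cells were CD44hi CD49d- and were split by the surface proteins Ly6C and Sca-1. There were 2 libraries of Ly6C+ Sca-1+ VM cells, 2 of Ly6C+ Sca-1- VM cells, 1 of Ly6C- Sca-1+ VM cells and 1 of Ly6C- Sca-1- VM cells. True memory cells (CD44hi CD49d+) and naive cells (CD44- CD49d-) had 1 library each. All 6 groups came from wild-type C57BL/6 mice through the same enrichment on anti-CD8 beads, and the labels name no treatment. The labels state neither the age of the animals nor how many were pooled.

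Binding of antigen to the TCR raises calcium and activates the ERK kinases, and within a short time the cell transcribes the NR4A orphan nuclear receptors and the EGR zinc finger proteins. IRF4 and MYC follow in amounts that grade with signal strength, and they drive growth and effector programmes. CD5 and CD6 are related scavenger receptors on the T cell surface that dampen TCR signalling, and surface CD5 is used as a record of how strongly a cell's TCR reacts to self.

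Library totals ran from 49993407 to 63815914 counts, so that 1 count was worth 0.0151 to 0.0198 CPM, the count scaled by library total and TMM factor. The 2 libraries of each Ly6C+ group are called A, whose column name has no suffix, and B, whose column name has one. What the suffix marks is not stated, and nothing says that A and B came from separate animals, so p-values measure only the spread between these libraries. The summed level of 7 CD8 T cell markers was 3763 to 4508 CPM in the 8 libraries. A list of 15 immediate early and heat shock genes, led by Junb, summed to 10070 and 10810 CPM in the A libraries and to 4410 and 3927 CPM in the B libraries. In the other 4 libraries that sum was 5877 to 6462 CPM.

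Stretches at annotated starts of the 3 NR4A genes and Egr2 are shown first because they hold several copies of TGACG. This is the core of the cAMP response element bound by CREB and ATF proteins. RefSeq promoter entries (GRCm38.p6) matched 6 of the 10 genes, and the 250 bases before each annotated start were searched on both strands. For Egr2, with 5 entries, the one nearest the start of the first GENCODE transcript was taken. The Nr4a2 window lies before its RefSeq start, 8965 bases from the start of its first GENCODE transcript. The Nr4a1 and Egr2 windows lie directly before the start of that transcript, but inside the RefSeq gene coordinates given below. The Nr4a3 stretch runs across the RefSeq gene start. Capitals mark the core TGACG and, in Egr2 only, the CArG box of serum response factor. Where the core lies on the other strand, it reads CGTCA. For Nr4a3, whose window reaches into an annotated exon, 30 bases with 2 of its copies are given. The windows lie at chr15:101266596-101266845 (plus strand) for Nr4a1, chr2:57124004-57124253 (minus strand) for Nr4a2 and chr10:67537619-67537868 (plus strand) for Egr2, and the Nr4a3 stretch at chr4:48045067-48045096 (plus strand).
Nr4a1: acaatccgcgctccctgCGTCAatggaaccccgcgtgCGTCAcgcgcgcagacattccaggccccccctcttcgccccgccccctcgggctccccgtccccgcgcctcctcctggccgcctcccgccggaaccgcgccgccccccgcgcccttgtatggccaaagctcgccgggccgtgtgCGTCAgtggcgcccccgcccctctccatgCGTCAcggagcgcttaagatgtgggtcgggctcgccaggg
Nr4a2: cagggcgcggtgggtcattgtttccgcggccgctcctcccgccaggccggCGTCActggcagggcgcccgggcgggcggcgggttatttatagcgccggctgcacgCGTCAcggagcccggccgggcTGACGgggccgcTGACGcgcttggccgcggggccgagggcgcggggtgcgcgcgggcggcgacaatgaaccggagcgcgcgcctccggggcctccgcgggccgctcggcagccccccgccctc
Nr4a3: aggagggTGACGtagcgtcccatgtCGTCA
Egr2: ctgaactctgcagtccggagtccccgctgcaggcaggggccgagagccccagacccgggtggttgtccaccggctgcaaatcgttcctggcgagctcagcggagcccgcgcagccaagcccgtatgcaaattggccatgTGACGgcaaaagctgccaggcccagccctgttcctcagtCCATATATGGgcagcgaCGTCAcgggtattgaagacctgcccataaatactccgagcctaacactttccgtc
The windows of Nr4a1, Nr4a2 and Nr4a3 each held 4 copies of the core, and that of Egr2 held 2. Of 32851 RefSeq windows of the same length, 0.137% held at least 4 and 3.9% at least 2. The windows of Irf4 and Cd5 held 0, and 17.8% of all windows held at least 1. The CArG box occurs in 1.47% of windows. The EGR site GCGNGGGCG occurred once each in the windows of Nr4a1 and Nr4a2 and in 4.7% of all windows. The NR4A monomer site AAAGGTCA was in none of the 6 windows and in 1.34% of all. The NFAT core GGAAA occurred once each in the windows of Nr4a2 and Egr2 and in 55.6% of all windows. No 2 of these matches overlap. They are matches of letters and not measured binding.

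Nr4a1, Nr4a2 and Nr4a3 encode NUR77, NURR1 and NOR1, which bind DNA without a known natural ligand. Nr4a1 (Gene ID 15370, chr15:101253902-101274795) is the member most often used as a reporter of recent TCR signalling. It had 352 and 111 CPM in Ly6C+ Sca-1+ VM cells A and B, and 391 and 91.1 CPM in Ly6C+ Sca-1- VM cells A and B. It had 241 CPM in Ly6C- Sca-1+ VM cells, 284 CPM in Ly6C- Sca-1- VM cells, 189 CPM in true memory cells and 98.04 CPM in naive cells. The A libraries held the 2 highest values and the B libraries lay with naive cells at the lowest 3, so that each Ly6C+ group spanned nearly the whole range. With all 8 libraries no comparison passed. Against Ly6C- VM cells the log2 fold change of Ly6C+ VM cells was -0.15, with a 95% interval of -1.71 to 1.41. Against naive cells it was 1.27 ± 0.91 for Ly6C+ VM cells (SE, edgeR adjusted p = 0.53) and 1.42 ± 0.98 for Ly6C- VM cells (adjusted p = 0.419). Without Ly6C+ Sca-1- B, the value of Ly6C+ VM against naive cells was 1.62. For Ly6C- VM against naive cells it stayed at 1.42 without Ly6C+ Sca-1- A or B. Those libraries enter that comparison only through the fitted spread.

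Nr4a2 (Gene ID 18227, chr2:57106830-57124003) had the widest range of the 10 genes, 10.3-fold from the lowest to the highest library. It had 40.6 and 26.8 CPM in Ly6C+ Sca-1+ VM cells A and B, and 65.0 and 31.1 CPM in Ly6C+ Sca-1- VM cells A and B. The other levels were 51.9 CPM in Ly6C- Sca-1+ VM cells, 99.2 CPM in Ly6C- Sca-1- VM cells, 52.1 CPM in true memory cells and 9.66 CPM in naive cells. Naive cells lay below every other library, and both Ly6C- libraries lay above 3 of the 4 Ly6C+ libraries. Ly6C- VM cells were higher than naive cells by a log2 fold change of 2.89 ± 0.51 (SE, edgeR adjusted p = 0.0274). For Ly6C+ VM cells against naive cells the log2 fold change was 2.06 ± 0.47 with an adjusted p of 0.0666, which missed the threshold of 0.05. That difference passed in DESeq2 (adjusted p = 0.0213), and it was 1.74 to 2.28 on leaving out any 1 of the 4 Ly6C+ libraries. Against Ly6C- VM cells the value of Ly6C+ VM cells was -0.83 ± 0.30 (adjusted p = 0.1). It was -1.15 without Ly6C+ Sca-1- A, -0.62 without Ly6C+ Sca-1- B and -1.001 without Ly6C+ Sca-1+ A. Against true memory cells the value of Ly6C+ VM cells was -0.37 ± 0.39 with all libraries (adjusted p = 0.627). It was -0.69 without Ly6C+ Sca-1- A.

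Nr4a3 (Gene ID 18124, chr4:48045078-48086447) kept a narrow spread between libraries of a group. It had 21.8 and 21.7 CPM in Ly6C+ Sca-1+ VM cells, 28.0 and 23.9 CPM in Ly6C+ Sca-1- VM cells, 33.7 CPM in Ly6C- Sca-1+ VM cells and 47.7 CPM in Ly6C- Sca-1- VM cells. True memory cells had 39.3 CPM and naive cells 22.9 CPM. The 4 Ly6C+ libraries and the naive library lay together below the 2 Ly6C- libraries and true memory. The gene was lower in Ly6C+ than in Ly6C- VM cells (log2 fold change -0.76 ± 0.10, adjusted p = 0.00512) and lower in Ly6C+ VM than in true memory cells (-0.72 ± 0.13, adjusted p = 0.0166). It was higher in Ly6C- VM than in naive cells (0.81 ± 0.15, adjusted p = 0.0299), a call that was lost with the Ly6C- Sca-1+ library alone (0.56, adjusted p = 0.1). On the length-corrected TPM scale, which was used for the 4 groups with 1 library, Nr4a1 made up 75.1% to 85% of the summed NR4A level, Nr4a2 6.19% to 19.4% and Nr4a3 5.06% to 8.82%.

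Egr1, Egr2 and Egr3 encode zinc finger factors that bind a shared GC-rich site. EGR2 and EGR3 are known to restrain T cell activation. Egr1 (Gene ID 13653, chr18:34861207-34864956) had 128 and 67.4 CPM in Ly6C+ Sca-1+ VM cells A and B and 137 and 60.3 CPM in Ly6C+ Sca-1- VM cells A and B. It had 99.4 CPM in Ly6C- Sca-1+ VM cells, 111 CPM in Ly6C- Sca-1- VM cells, 135 CPM in true memory cells and 113 CPM in naive cells. The B libraries were the 2 lowest, the A libraries were the highest and the third highest, and no test passed. In the 4 groups with 1 library, Egr1 was 68.5% to 77.7% of the summed EGR level on the TPM scale.

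Egr2 (Gene ID 13654, chr10:67534469-67542188) had 9.13 and 10.95 CPM in Ly6C+ Sca-1+ VM cells and 11.3 and 11.2 CPM in Ly6C+ Sca-1- VM cells. It had 15.9 CPM in Ly6C- Sca-1+ VM cells, 24.4 CPM in Ly6C- Sca-1- VM cells, 14.6 CPM in true memory cells and 12.8 CPM in naive cells. All 4 Ly6C+ libraries lay below all 4 others. Ly6C+ VM cells were lower than Ly6C- VM cells (log2 fold change -0.89 ± 0.13, adjusted p = 0.00639). Between the Sca-1+ groups alone the value was -0.66 with an adjusted p of 0.0743, so that this call rests in part on the Ly6C- Sca-1- library. Against naive cells, the value was -0.27 ± 0.16 for Ly6C+ VM cells (adjusted p = 0.445) and 0.61 ± 0.19 for Ly6C- VM cells (adjusted p = 0.106). The second stayed at 0.61 without Ly6C+ Sca-1- A or B.

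Egr3 (Gene ID 13655, chr14:70077317-70082613) had 15.8 and 15.1 CPM in Ly6C+ Sca-1+ VM cells, 22.5 and 21.6 CPM in Ly6C+ Sca-1- VM cells, 24.5 CPM in Ly6C- Sca-1+ VM cells and 33.8 CPM in Ly6C- Sca-1- VM cells. True memory cells had 31.0 CPM and naive cells 36.1 CPM. It was the only 1 of the 10 genes with its highest level in naive cells, and the A and B libraries differed by at most 1.05-fold. Ly6C+ VM cells were lower than Ly6C- VM cells (log2 fold change -0.64 ± 0.09, adjusted p = 0.00667), naive cells (-0.97 ± 0.11, adjusted p = 0.0077) and true memory cells (-0.74 ± 0.11, adjusted p = 0.0106). Ly6C- VM cells did not pass against naive cells (-0.33 ± 0.13, adjusted p = 0.182).

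Irf4 (Gene ID 16364, chr13:30749233-30766981) encodes a factor that pairs with BATF and JUN proteins in activated T cells. It had 22.5 and 20.3 CPM in Ly6C+ Sca-1+ VM cells and 18.5 and 9.63 CPM in Ly6C+ Sca-1- VM cells A and B. It had 78.1 CPM in Ly6C- Sca-1+ VM cells, 48.8 CPM in Ly6C- Sca-1- VM cells, 44.8 CPM in true memory cells and 8.98 CPM in naive cells. Both Ly6C- libraries and true memory lay above the 4 Ly6C+ libraries, and naive cells were the lowest. The gene was lower in Ly6C+ than in Ly6C- VM cells (log2 fold change -1.83 ± 0.23, adjusted p = 0.00453) and than in true memory cells (-1.37 ± 0.29, adjusted p = 0.0339). Ly6C- VM cells were higher than naive cells by 2.78 ± 0.40 (adjusted p = 0.0136). For Ly6C+ VM against naive cells the value was 0.95 ± 0.34 (adjusted p = 0.209). It passed in DESeq2 (adjusted p = 0.0252), and it was 0.67 without Ly6C+ Sca-1- A and 1.15 without Ly6C+ Sca-1- B.

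Myc (Gene ID 17869, chr15:61985341-61990361), the growth-promoting transcription factor, varied 1.64-fold over all libraries. It had 189 and 182 CPM in Ly6C+ Sca-1+ VM cells, 208 and 168 CPM in Ly6C+ Sca-1- VM cells, 140 CPM in Ly6C- Sca-1+ VM cells and 158 CPM in Ly6C- Sca-1- VM cells. True memory cells had 126 CPM and naive cells 166 CPM. The 4 Ly6C+ libraries lay above the other 4, yet no test passed in edgeR with all libraries. The log2 fold change of Ly6C+ VM cells was 0.33 ± 0.11 against Ly6C- VM cells (adjusted p = 0.0804) and 0.56 ± 0.14 against true memory cells (adjusted p = 0.0618). Without Ly6C+ Sca-1- B, those values were 0.40 and 0.63, and against true memory cells the value without Ly6C+ Sca-1- A was 0.48. DESeq2 gave an adjusted p of 0.0221 against Ly6C- VM cells and of 0.00228 against true memory cells, and limma-voom gave 0.0438 for the true memory comparison.

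Cd5 (Gene ID 12507, chr19:10718107-10739026) and Cd6 (Gene ID 12511, chr19:10789339-10830062) are neighbours on chromosome 19. Cd5 had 264 and 241 CPM in Ly6C+ Sca-1+ VM cells, 316 and 250 CPM in Ly6C+ Sca-1- VM cells, 279 CPM in Ly6C- Sca-1+ VM cells and 292 CPM in Ly6C- Sca-1- VM cells. It had 216 CPM in true memory cells and 216 CPM in naive cells, below all 6 VM libraries. Cd6 had 403 and 352 CPM in Ly6C+ Sca-1+ VM cells, 444 and 359 CPM in Ly6C+ Sca-1- VM cells, 387 CPM in Ly6C- Sca-1+ VM cells and 444 CPM in Ly6C- Sca-1- VM cells. It had 307 CPM in true memory cells and 348 CPM in naive cells, again the lowest 2. The range over libraries was 1.46-fold for Cd5 and 1.45-fold for Cd6, and neither passed a test. For Cd5 the 95% interval of the log2 fold change was -0.38 to 0.19 for Ly6C+ against Ly6C- VM cells, -0.07 to 0.69 for Ly6C+ VM against naive cells and -0.01 to 0.82 for Ly6C- VM against naive cells. For Cd6 those intervals were -0.38 to 0.20, -0.22 to 0.54 and -0.16 to 0.66. In the 4 groups with 1 library, Cd5 had 220 to 305 TPM, Cd6 220 to 340 TPM and Nr4a1 82.8 to 247 TPM, and the other 7 genes had at most 146 TPM, the level of Myc in 1 library.

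**Figure D1:**
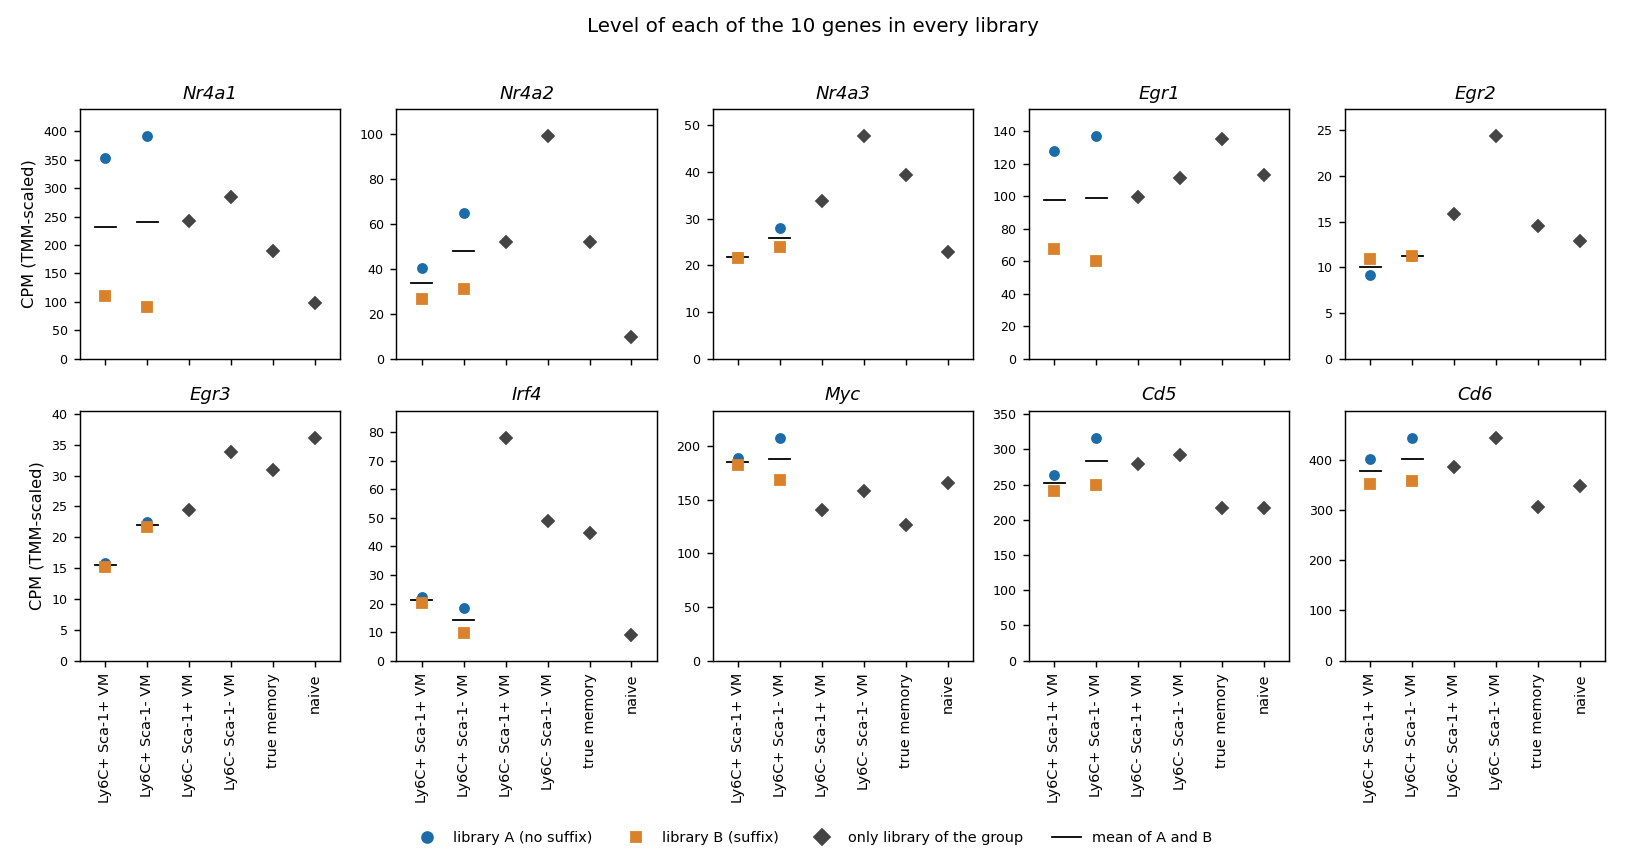
TMM-scaled CPM of each of the 10 genes (vertical axes, linear from 0) in every library, by sort group (horizontal axes). Circles are A libraries, squares B libraries, diamonds the only library of a group, and lines the mean of A and B; Nr4a1 and Egr1 split A from B, while Nr4a3, Egr2 and Egr3 have A and B close together and below the Ly6C- VM libraries.

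The A and B libraries separated the 10 genes into unlike sets. Nr4a1 was 3.18-fold higher in A than in B among Ly6C+ Sca-1+ VM cells and 4.3-fold higher among Ly6C+ Sca-1- VM cells. Egr1 was 1.89-fold and 2.27-fold higher in A, and Nr4a2 1.52-fold and 2.09-fold. Irf4 differed little in Ly6C+ Sca-1+ VM cells (1.11-fold) and 1.92-fold in Ly6C+ Sca-1- VM cells, and the other 6 genes differed by at most 1.27-fold in either group. At least 2-fold differences in either direction made up 4.19% of all genes in Ly6C+ Sca-1+ VM cells and 5.64% in Ly6C+ Sca-1- VM cells, and 1 and 3 of the 10 genes passed that fold. Nr4a1 was the only 1 of the 10 genes at least 2-fold higher in A in both groups, as were 0.602% of all genes. The authors' deposited table gives the B over A fold of Nr4a1 as -3.18 in Ly6C+ Sca-1+ VM cells and -4.3 in Ly6C+ Sca-1- VM cells, where a minus sign stands for lower.

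The immediate early and heat shock list moved with these 3 genes. Of its 15 genes, 10 were at least 2-fold higher in A among Ly6C+ Sca-1+ VM cells and 12 among Ly6C+ Sca-1- VM cells, with medians of 1.07 and 1.26 log2 units beside 0.001 and 0.017 over all genes. Jun was higher in A by 1.47 log2 units among Ly6C+ Sca-1+ VM cells and by 2.11 among Ly6C+ Sca-1- VM cells, and Fos by 1.07 and 1.24. Hspa1a and Hspa1b, near-identical heat shock genes, were higher by 1.68 and 1.77 in Ly6C+ Sca-1+ VM cells and by 5.31 and 4.93 in Ly6C+ Sca-1- VM cells. What sets this list apart between A and B, and its part in the levels of Nr4a1, Egr1 and Nr4a2, was not tested. With the A libraries alone, a split chosen after the values were seen, Ly6C+ VM cells stood above Ly6C- VM cells by 0.50 log2 units for Nr4a1 and by 0.33 for Egr1, and with the B libraries alone below by -1.38 and -0.72. Leaving out Ly6C+ Sca-1- A gave values of -0.85 for Nr4a1 and -0.46 for Egr1 in Ly6C+ against Ly6C- VM cells. For Nr4a2 the value there was negative without an A or a B library, as given above. Egr1 was at -0.82 in Ly6C+ VM against true memory cells without Ly6C+ Sca-1- A.

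**Figure D2:**
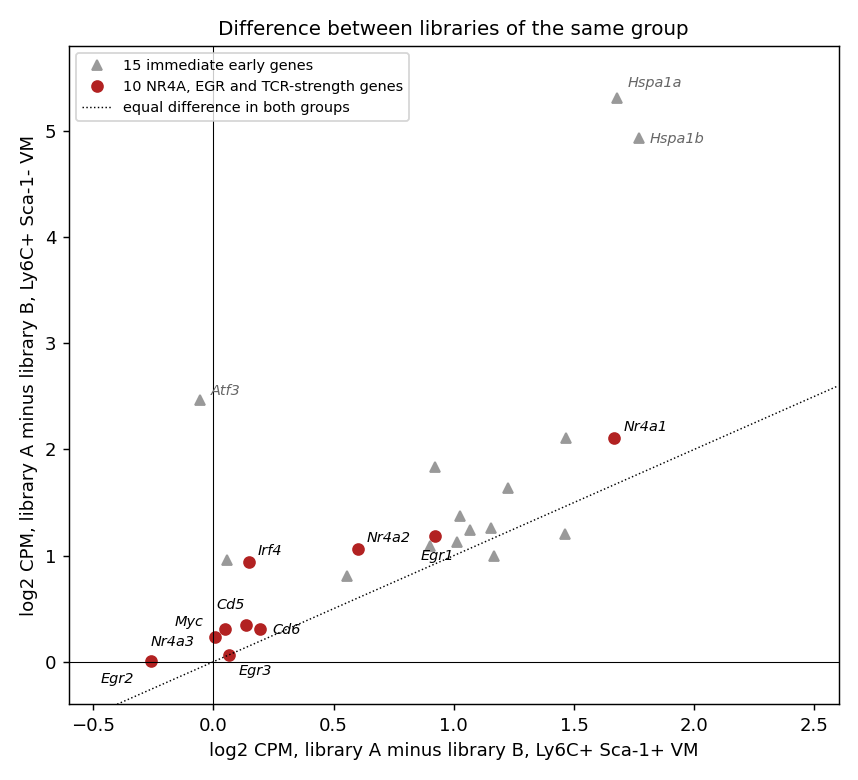
Log2 CPM of library A minus library B in Ly6C+ Sca-1+ VM cells (horizontal) against the same in Ly6C+ Sca-1- VM cells (vertical), for the 10 genes (red circles) and 15 immediate early and heat shock genes (grey triangles, the 3 named lying farthest off the dotted line of equal difference). Nr4a1, Egr1 and Nr4a2 lie among the triangles, and Nr4a3, Egr2, Egr3, Myc, Cd5 and Cd6 near 0.

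Across the 10 genes, Ly6C+ against Ly6C- VM cells gave 4 lower, 0 higher and 6 that did not pass, beside 12.6% lower and 8.88% higher of all genes tested. The 4 were Nr4a3, Egr2, Egr3 and Irf4, and their A and B libraries gave values of one sign. The median log2 fold change of the 10 was -0.39, beside 0.002 over all genes. In the authors' deposited table, which runs the other way, Ly6C- over Ly6C+ VM cells has a fold of 3.59 for Irf4, 1.89 for Egr2, 1.71 for Nr4a3, 1.56 for Egr3 and 1.86 for Nr4a2, the last with an adjusted p of 0.0132. Markers of other cells also differed: 4 of 5 CD4 T cell markers were in the table (Foxp3 was not) and summed to 16.4 to 40.5 CPM in the Ly6C+ libraries, against 262 and 213 CPM in the Ly6C- Sca-1+ and Ly6C- Sca-1- libraries. Ctla4, an inhibitory receptor that activated CD8 T cells also express, made up most of that sum, with 12.6 to 31.8 CPM in the Ly6C+ libraries, against 207 and 199 CPM in the Ly6C- libraries. Cd4 itself had 0.16 to 0.95 CPM in the Ly6C+ libraries, against 8.01 and 3.56 CPM in the Ly6C- libraries. The 10 dendritic cell and MHC class II markers summed to 46.2 to 121 CPM in the Ly6C+ libraries, against 240 and 349 CPM in the Ly6C- libraries. Of 4 plasma cell markers, the 3 in the table were all lower in Ly6C+ VM cells. Sdc1 had 0.05 to 0.24 CPM in the Ly6C+ libraries, against 5.72 and 4.27 CPM in the Ly6C- libraries. Jchain had 0.24 to 5.48 CPM, against 19.6 and 2.11 CPM, and Xbp1 25.6 to 31.9 CPM, against 40.3 and 39.3 CPM. Among other lists, 4 of 5 erythroid, 3 of 6 B cell and 2 of 10 monocyte and macrophage markers were lower and 0 higher. The part of all these markers in the differences of the 4 genes was not tested. In bulk libraries fewer cells that express a gene and less RNA per cell cannot be told apart.

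Against naive cells, Ly6C+ VM cells had 1 of the 10 genes lower (Egr3, beside 2.13% of all genes) and 0 higher (3.54%), and Ly6C- VM cells had 3 higher (Nr4a2, Nr4a3 and Irf4, beside 5.74%) and 0 lower (2.02%). DESeq2 also called Nr4a2 and Irf4 higher in Ly6C+ VM than in naive cells. Both contrasts use the same naive library, and its spread was assumed to be that of the Ly6C+ groups. Against true memory cells, Ly6C+ VM cells had 3 lower (Nr4a3, Egr3 and Irf4, beside 8.6%) and 0 higher (1.95%). Ly6C- VM cells had 0 past the threshold against true memory cells in edgeR, beside 2.3% of all genes, and 1 of the 10, Cd6, at an unadjusted p under 0.05 (0.43 ± 0.17, adjusted p = 0.444). DESeq2 and limma-voom also called 0 of the 10 there. A fit with the column suffix as a block, described below, called Nr4a1, Nr4a2, Egr2, Cd5 and Cd6 higher and Egr1 lower. Its estimates were those of the main fit, with smaller SE. The true memory library had 5186 CPM of summed dendritic cell and MHC class II markers, led by Cd74, against 46.2 to 349 CPM in the VM and naive libraries, and the part of those transcripts in its levels was not tested. Between single libraries, true memory against naive, Nr4a2 differed by 2.43 log2 units and Irf4 by 2.31, the 2 genes past 2-fold and higher, beside 10.3% of all genes. Cd5 differed by 0.00 and Egr3 by -0.22 in that pair, which has no replicate.

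**Figure D3:**
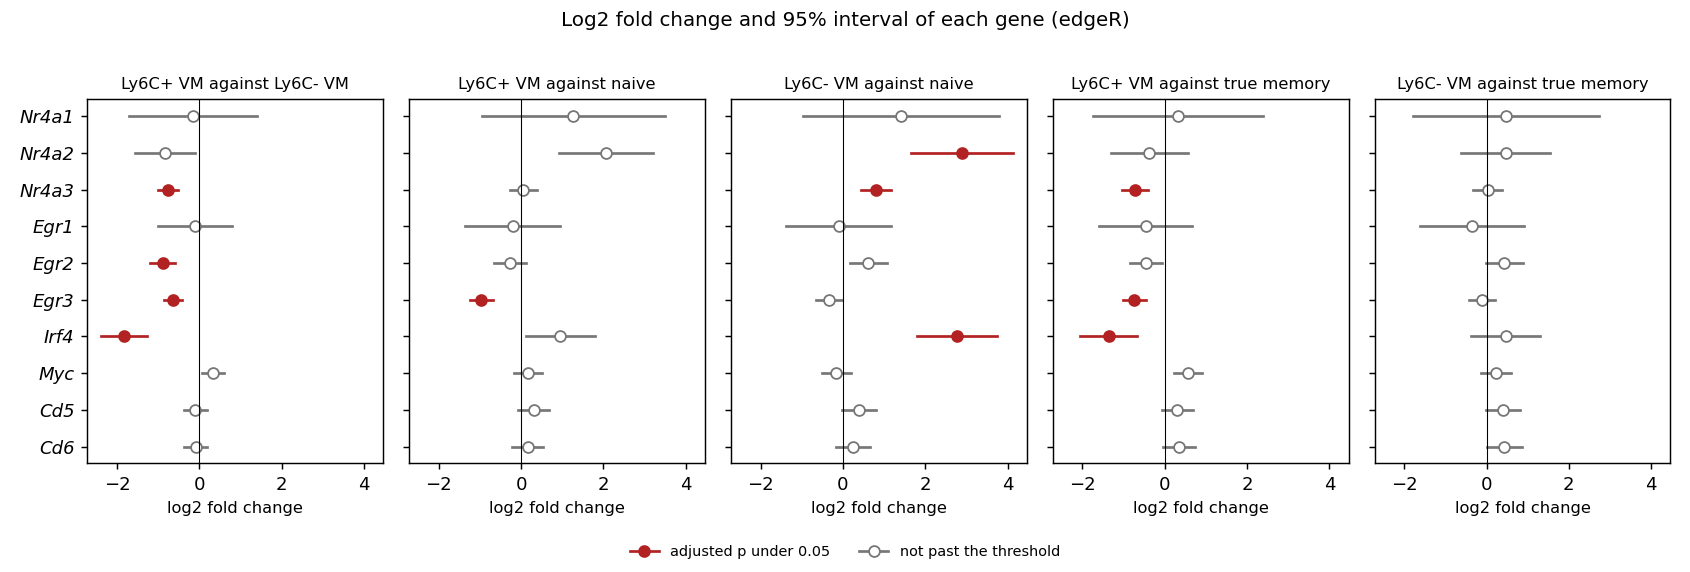
Log2 fold change (horizontal, points) with its 95% interval (lines) for each of the 10 genes in 5 comparisons, from the edgeR quasi-likelihood fit; filled red marks an adjusted p under 0.05. Irf4, Egr3, Egr2 and Nr4a3 lie left of 0 in Ly6C+ against Ly6C- VM cells, and the intervals of Nr4a1 and Egr1 span 0 in all 5 comparisons.

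In Ly6C+ VM cells, Sca-1+ against Sca-1-, edgeR called 0 of the 10 genes and 1 gene in all (0.00662%), and DESeq2 and limma-voom also called 0 of the 10. Egr3 was the only 1 of the 10 with an unadjusted p under 0.05, out of 650 such genes, with a log2 fold change of -0.51 ± 0.11 and an adjusted p of 0.233. Set library by library, its Sca-1 difference was -0.51 for A, -0.52 for B and -0.47 for the single Ly6C- libraries. Irf4 went the other way, with 0.60 ± 0.29 in Ly6C+ VM cells (adjusted p = 1), 0.28 for A, 1.07 for B and 0.68 for the Ly6C- libraries. Without Ly6C+ Sca-1- A, its value was 1.15, and without the same library Nr4a1 turned to 1.35. Nr4a2 was at -0.51 ± 0.36 in Ly6C+ and at -0.93 in Ly6C- VM cells, and without Ly6C+ Sca-1- B its Ly6C+ value was -0.95. Between the single Ly6C- libraries, 0 of the 10 genes reached 2-fold, beside 6.04% of all genes. In that pair, which has no replicate, 9 of 10 were lower in Sca-1+ cells. Their median was -0.22, beside 0.027 over all genes. No gene of the table passed the edgeR test of whether the Sca-1 difference itself differed between Ly6C+ and Ly6C- VM cells (0%), with 768 genes, none of the 10 among them, at an unadjusted p under 0.05 and 39 genes called by DESeq2. Monocyte and macrophage markers, of which 10 of 12 were in the table, summed to 118 and 159 CPM in Ly6C+ Sca-1+, against 35.9 and 15.2 CPM in Ly6C+ Sca-1- VM cells. Jchain, a plasma cell marker, was higher in Sca-1+ cells by 3.03 log2 units for A, 3.80 for B and 3.20 for the Ly6C- libraries. In the same order, the plasma cell markers Sdc1 and Xbp1 were at 1.24, -0.69 and 0.42, and at -0.02, -0.10 and 0.04. The part of these markers in the Sca-1 values, that of Irf4 included, was not tested.

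Lists of genes that act beside the 10 genes were also looked up. They were chosen with earlier results of these data known, so their counts only describe. In the list of 12 EGR co-repressors and anergy-linked genes, Ly6C+ against Ly6C- VM cells had 5 lower and 1 higher, beside 12.6% lower and 8.88% higher of all genes. The median was 0.02 beside 0.002 over all genes. Nab2, a co-repressor that EGR proteins bind and induce, had 28.7 and 28.9 CPM in Ly6C+ Sca-1+ and 35.5 and 35.0 CPM in Ly6C+ Sca-1- VM cells, against 68.2 and 78.2 CPM in Ly6C- VM cells, 61.5 CPM in true memory cells and 76.8 CPM in naive cells. Like Egr3, it was lower in Ly6C+ VM cells than in each of the other populations, by -1.20 ± 0.07 against Ly6C- VM (adjusted p = 0.000511), by -1.27 ± 0.09 against naive (adjusted p = 0.00154) and by -0.95 ± 0.09 against true memory cells (adjusted p = 0.00142). Izumo1r, the folate receptor FR4 known from anergic CD4 T cells, had 9.85 to 18.2 CPM in the 4 Ly6C+ libraries, against 54.1 and 74.7 CPM in the Ly6C- libraries (-2.20 ± 0.15, adjusted p = 0.000678). Nt5e, which encodes the ecto-enzyme CD73, was the 1 higher gene (0.44 ± 0.08, adjusted p = 0.012). Of 8 NR4A partners and NR4A-linked inhibitory genes tested, of 10 listed, 6 were lower and 0 higher, beside the same shares of all genes. Their median was -1.98, and the list includes Ctla4, which also leads the CD4 T cell markers above. Pdcd1, which encodes the inhibitory receptor PD-1, had 0.43 to 1.22 CPM in the Ly6C+ libraries, against 12.6 and 12.7 CPM in the Ly6C- libraries (-3.93 ± 0.29, adjusted p = 0.000855). Lag3, another inhibitory receptor, was at -3.80 ± 0.34 (adjusted p = 0.00146).

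Of 20 negative regulators of TCR signalling, 5 were higher and 4 lower in Ly6C+ than in Ly6C- VM cells, beside 8.88% higher and 12.6% lower of all genes, with a median of 0.16. Spry1, which restrains the RAS and ERK pathway, had 2.25 to 3.74 CPM in the Ly6C+ libraries, against 29.8 and 36.0 CPM in the Ly6C- libraries, 8.57 CPM in true memory cells and 2.26 CPM in naive cells. Its log2 fold change was -3.56 ± 0.15 for Ly6C+ against Ly6C- VM cells (adjusted p = 0.000371) and 1.93 ± 0.23 for Ly6C- VM against true memory cells (adjusted p = 0.0142). Dusp4, a phosphatase of ERK, was also lower in Ly6C+ VM cells (-2.05 ± 0.19, adjusted p = 0.00161). Lair1, a collagen-binding inhibitory receptor, and Lax1, a transmembrane adaptor, were higher in them (1.23 ± 0.13, adjusted p = 0.00277, and 0.57 ± 0.10, adjusted p = 0.0111). Of 16 TCR-inducible activation genes, 7 were lower and 0 higher in Ly6C+ VM cells, with a median of -0.26. These included Il2ra, the alpha chain of the IL-2 receptor (-3.22 ± 0.25, adjusted p = 0.00101), and Cd40lg (-3.69 ± 0.29, adjusted p = 0.00104), which is also 1 of the CD4 T cell markers. Against naive cells, 2 of these 16 were higher in Ly6C+ VM cells, beside 3.54% of all genes, namely the transcription factor gene Bhlhe40 (3.598 ± 0.60, adjusted p = 0.0252) and Cd28, the costimulatory receptor gene (1.40 ± 0.28, adjusted p = 0.0437). In Ly6C- VM cells 6 of 16 were higher than in naive cells and 0 lower, beside 5.74% higher and 2.02% lower of all genes, among them Tnfrsf9, which encodes 4-1BB (1.63 ± 0.18, adjusted p = 0.00562).

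**Figure D4:**
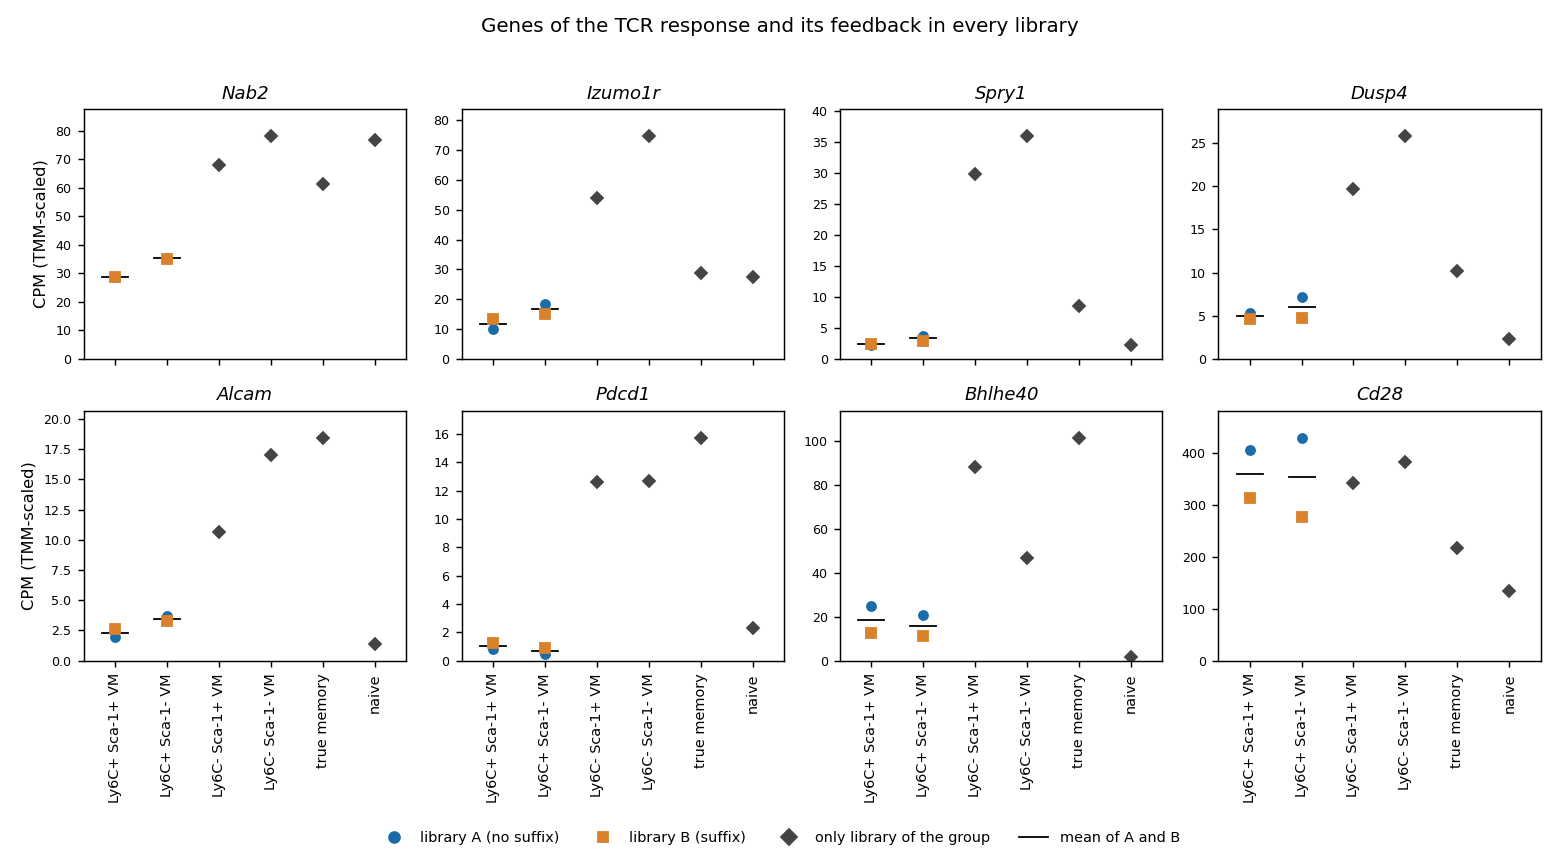
TMM-scaled CPM (vertical axes, linear from 0) of 8 listed genes that passed a test, in every library by sort group, with the symbols of the plot of the 10 genes. Nab2 is at 28.7 to 35.5 CPM in the Ly6C+ VM libraries and at 61.5 to 78.2 CPM elsewhere, and Spry1 is highest in the Ly6C- VM libraries.

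Of 14 IRF4 relatives and partners tested, of 15 listed, 4 were lower and 0 higher in Ly6C+ than in Ly6C- VM cells, with a median of -0.14. Irf5 (-1.83 ± 0.17, adjusted p = 0.00163) and Irf8 (-1.15 ± 0.13, adjusted p = 0.00284), which are also expressed by myeloid cells, were among the 4. Prdm1, which encodes BLIMP-1, was higher than in naive cells in both Ly6C+ (2.86 ± 0.31, adjusted p = 0.00588) and Ly6C- VM cells (3.23 ± 0.32, adjusted p = 0.00359). Of 10 MYC network factors tested, of 11 listed, 4 were lower and 1, Mga, was higher, and of 22 MYC-induced growth genes 4 were lower and 1 higher, with medians of -0.08 and -0.06. For the growth genes those counts are near the shares of all genes, 12.6% lower and 8.88% higher. The lower growth genes included the glycolysis genes Hk2 (-0.97 ± 0.14, adjusted p = 0.00639) and Ldha (-0.58 ± 0.08, adjusted p = 0.00665). Of 16 CD5 and CD6 ligands and signalling partners tested, of 17 listed, 4 were lower and 1, Cbl, was higher, with a median of 0.05. Alcam, which encodes a ligand of CD6, had 1.94 to 3.69 CPM in the Ly6C+ libraries, against 10.6 and 17.0 CPM in the Ly6C- libraries. It had 18.4 CPM in true memory cells and 1.39 CPM in naive cells. It was lower in Ly6C+ than in Ly6C- VM cells (-2.26 ± 0.17, adjusted p = 0.000979) and higher in Ly6C- VM than in naive cells (3.28 ± 0.31, adjusted p = 0.00297).

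Over the 8 libraries, which share their depth and library differences with every gene, the patterns of the 10 genes fell near one another in part. Pearson's r of log2 CPM was 0.93 for Cd5 with Cd6, 0.895 for Nr4a3 with Egr2, 0.742 for Nr4a1 with Nr4a2 and 0.721 for Nr4a1 with Egr1. It was 0.152 for Nr4a1 with Egr2 and -0.079 for Nr4a1 with Egr3. Among 10028 genes with a mean of at least 5 CPM, those most like Nr4a1 outside the 10 were Ubald2 (r = 0.954), Nfkbib (0.95) and Exoc4 (0.945). Those most like Egr2 were Agbl5 (0.989), Elk3 (0.985) and Rnf19a (0.984), and those most like Irf4 were Tcf19 (0.988), Tpi1 (0.988) and Pask (0.986). For Myc they were Xpc, Rcl1 and Adck1 (0.967 to 0.977), for Cd5 Trav3d-3, Ppp1r16b and Fbl (0.93 to 0.956), and for Cd6 Gemin5, Vps37b and Ydjc (0.916 to 0.919).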

How the data were processed

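RNA was sequenced from 8 sorted spleen CD8 T cell populations. Groups were taken from the titles, since another label field calls all libraries virtual memory. Per the labels' protocols, stranded mRNA libraries were read as pairs of 101 bp; FastQC 0.11.7 checked the reads and Trimmomatic 0.38 trimmed them. Build mm10, R 3.6.0 and edgeR appear in the submitters' processing notes. Neither aligner nor counter is given in the sources used here. Raw counts per gene, as deposited, entered every test. The TPM values computed by the authors served for comparing levels between genes in the 4 groups with 1 library. The authors' deposited signed fold, a score never between -1 and 1, and their adjusted p-value are quoted only as theirs. No count in the table was below 1, so genes absent from any library had been left out. A further 20 per-sample columns were not used.

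Genes were kept with filterByExpr by group (15112) and scaled with TMM. One edgeR 4.0.16 quasi-likelihood fit (R 4.3.3) held all 8 libraries with 1 coefficient per group. The spread came from the 2 replicated groups (2 residual degrees of freedom, prior 4.14, common biological coefficient of variation 0.151), and lone libraries were assumed to vary alike. Genes passed at a Benjamini-Hochberg adjusted p under 0.05 over all genes tested. Log2 fold changes are edgeR estimates with standard errors (SE) from the F statistic. For single libraries, log2 CPM (prior count 2) was subtracted, without a test. The code of the fit was run on simulated data with libraries drawn independently. In the real data the A minus B deviations of the replicated groups correlate, so that run cannot show how well the p-values hold here. The 10 genes and all lists were chosen with earlier results of these data known. Text names, per list and comparison, at most the 2 higher and 2 lower passing genes with the smallest p, and the 3 genes most like Nr4a1, Egr2, Irf4, Myc, Cd5 and Cd6. Intervals cover the fitted spread only. Alternatives were another scaling, filters, DESeq2 1.42.0, limma-voom 3.58.1, left-out libraries, subsets of groups and a block. A fit with a library left out draws its spread from a single replicated group, so its values are given without p. Coordinates are from RefSeq (GRCm38.p6).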

Additional observations from a re-analysis of the deposited data

How the results depend on the processing

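Of 11 calls among the 10 genes, tried under 132 alternatives in all, 128 alternatives were counted as kept, none reversed a sign and 2 lost the call. In Ly6C+ against Ly6C- VM cells, the kept ones of Nr4a3, Egr2 and Egr3 include values with A or B libraries only. Those had no test and were counted because they lay within the SE of the main value. For Irf4 in that comparison, the 2 left also had no test and lay outside it (-1.60 with A and -2.14 with B libraries only). The 2 lost were Egr2 in Ly6C+ against Ly6C- VM cells with Sca-1+ groups only (-0.66) and Nr4a3 in Ly6C- VM against naive cells with Ly6C- Sca-1+ only (0.56). Of 636 tested alternatives on values that had not passed, 544 stayed so with their sign, 54 passed with it, 35 changed sign without passing and 3 passed with the sign changed. A further 12 had no test. The tested alternatives include fits with a library left out, whose spread comes from a single replicated group. The cause of these changes was not tested.

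Counts of genes past the threshold over the whole table moved as follows. Those from leaving out 1 library rest on the spread of a single replicated group and are not on the same footing as the others. For Sca-1+ against Sca-1- in Ly6C+ VM cells (1 gene) the count was 0 with no filter, 230 with DESeq2, 0 with limma-voom and 1 to 307 leaving out 1 library. For the Sca-1 difference in Ly6C+ minus that in Ly6C- VM cells (0 genes) it was 39 with DESeq2 and 0 to 169 leaving out 1 library. With DESeq2 it was 1326 for Ly6C+ VM against naive cells (857 in edgeR), 1877 for Ly6C- VM against naive cells (1172) and 541 for Ly6C- VM against true memory cells (348). Leaving out 1 library gave 2039 to 4381 for Ly6C+ against Ly6C- VM cells (3240), 710 to 1760 and 954 to 2690 for Ly6C+ and Ly6C- VM against naive cells, and 1253 to 2538 and 369 to 771 for Ly6C+ (1594) and Ly6C- VM against true memory cells. Ly6C+ against Ly6C- VM cells gave 1124 with Sca-1- groups only and 1386 with Sca-1+ groups only.

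The column suffix was also used as a replicate block. Its meaning is not stated, so the libraries share only a suffix. The A minus B deviations of the replicated groups correlated with r = 0.354 over 15112 genes. With the block the counts were 6601 for Ly6C+ against Ly6C- VM cells, 467 for Sca-1, 364 for the Sca-1 difference, 3442 and 5274 for Ly6C+ and Ly6C- VM against naive cells, and 4644 and 1867 for Ly6C+ and Ly6C- VM against true memory cells. In the block fit 39 differences of the 10 genes passed, all 11 of the calls above and 28 others. Not all of the 28 kept the sign they had in the main fit. For Sca-1+ against Sca-1- in Ly6C+ VM cells these were Egr3 (-0.51, adjusted p = 0.00621), Nr4a2 (-0.46, adjusted p = 0.0253) and Irf4 (0.65, adjusted p = 0.0378). Groups with 1 library have no suffix and were counted with A, so that differences from them follow the A libraries. They newly included Nr4a1 (1.93 and 1.42), Cd5 (0.42 and 0.40) and Cd6 (0.28 and 0.25) as higher than naive cells in Ly6C+ and in Ly6C- VM cells, and Nr4a2 (-0.48, adjusted p = 0.00181) as lower in Ly6C+ than in Ly6C- VM cells. In the same fit Ly6C+ against Ly6C- VM cells turned to 0.51 for Nr4a1, 0.33 for Egr1, 0.019 for Cd5 and 0.031 for Cd6, Sca-1 in Ly6C+ VM cells to 0.061 for Nr4a1 and 0.027 for Egr1, and Ly6C+ VM against naive cells to 0.23 for Egr1.

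Limma-voom gave 0.064 for Nr4a1 and 0.025 for Egr1 for Sca-1 in Ly6C+ VM cells. Ly6C- VM against true memory cells was 0.13 for Egr3 with Ly6C- Sca-1- only, and -0.006 for Nr4a2 and -0.22 for Nr4a3 with Ly6C- Sca-1+ only. With A libraries only, a choice made after seeing the data, Ly6C+ against Ly6C- VM cells was 0.50 for Nr4a1, 0.33 for Egr1, 0.018 for Cd5 and 0.030 for Cd6. Leaving out 1 library gave, for Ly6C+ against Ly6C- VM cells, -0.85 to 0.20 for Nr4a1 and -0.46 to 0.14 for Egr1. For Sca-1 in Ly6C+ VM cells it gave -1.12 to 1.35 for Nr4a1, -0.95 to 0.12 for Nr4a2, -0.55 to 0.70 for Egr1, -0.16 to 0.14 for Myc, -0.33 to 0.016 for Cd5 and -0.24 to 0.074 for Cd6. For the Sca-1 difference between Ly6C+ and Ly6C- VM cells it gave -0.89 to 1.58 for Nr4a1, -0.013 to 1.05 for Nr4a2, -0.38 to 0.86 for Egr1, -0.47 to 0.47 for Irf4, -0.26 to 0.083 for Cd5 and -0.038 to 0.27 for Cd6. It gave -0.004 to 0.11 for Nr4a3 and -0.56 to 0.033 for Egr1 in Ly6C+ VM against naive cells, and -0.38 to 0.67 for Nr4a1 in Ly6C+ VM against true memory cells. The lowest count of the 10 genes in any library was 486; how depth limits the calls was not tested.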
